A study of Mus musculus with 9 samples.

Results

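Reelin signalling was followed through 7 genes, *Reln*, *Dab1*, *Vldlr*, *Lrp8*, *Cdk5*, *Cdk5r1* and *Pafah1b1*, which were chosen by name as members of the pathway, with earlier results of these data known. All 7 were listed in each of the 9 scRNA-Seq libraries, among 17487 genes listed in any of them. The libraries came from neocortices of littermate mouse embryos at E18.5, on the Tcf4ex4WT/lacZ background, 5 of wildtype (WT) and 4 of *Tcf4* knockout (KO) genotype. In the KO, both alleles carry a lacZ cassette ahead of exon 4 of *Tcf4*, which leaves a short isoform of this basic helix-loop-helix transcription factor. The labels name no treatment, and the allele is not restricted to a cell type. Levels are unique molecular identifiers (UMIs) of a gene per 10000 UMIs of the cell, averaged over cells, with the WT values in the order WT2, WT3, WT4 and the KO values in the order KO4, KO5, and shares are the percentage of cells with at least 1 UMI after every cell was thinned to 1800 UMIs.

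Reelin is a large glycoprotein that Cajal-Retzius cells at the surface of the developing cortex secrete, and that some interneurons make later. It binds the lipoprotein receptors VLDLR and APOER2 (the product of *Lrp8*) on migrating neurons, which leads Src family kinases to phosphorylate the adaptor DAB1 inside the cell. Mice that lack reelin, DAB1 or both receptors have disordered cortical layers. Cyclin-dependent kinase 5 with its activator p35 (*Cdk5r1*), and LIS1 (*Pafah1b1*), which regulates the dynein motor, also act in the migration of cortical neurons and are studied together with this pathway.

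WT2, WT3, WT4, KO4 and KO5 were compared (3 WT against 2 KO). The libraries labelled WT replicate 1, KO replicate 1 and KO replicate 2 held at most 500 cells, and that labelled WT replicate 5 was set aside for its low *Tcf4*, as the methods of the study do for 1 WT animal. They held 1184, 1617, 6173, 4199 and 2303 kept cells, with a median of 2217 to 4359 UMIs a cell. *Tcf4* stood at 12.2, 12.6 and 12.2 UMIs per 10000 in WT2 to WT4 and at 9.29 and 7.59 in KO4 and KO5. Reads of a 3′ kit lie at the end of the gene, outside the insertion, so that this level is a weak check of the genotype. By it, 3 of the other libraries went against their labels: the libraries labelled WT replicates 1 and 5 had 4.65 and 7.20, below both KO libraries compared, and the library labelled KO replicate 1 had 16.7. These are named as labelled. KO4, KO5 and the libraries labelled WT replicates 1 and 5 also stood apart in genes unrelated to reelin. Over all kept cells *Actb*, the cytoplasmic actin, stood at 50.4, 64.3 and 40.5 UMIs per 10000 in WT2 to WT4 and at 172 and 170.1 in KO4 and KO5, and at 200.3 and 197 in the libraries labelled WT replicates 1 and 5. *Neurod6*, a glutamatergic marker, stood at 1.19, 0.346 and 1.69 in endothelial cells of WT2 to WT4 and at 4.83, 5.49 and 4.21 in those of KO4, KO5 and the library labelled WT replicate 5. Cells with over 1% haemoglobin UMIs, 13.9% in KO4, 40.4% in KO5 and 0.421 to 1.34% in the WT libraries compared, were left out. Between pairs of libraries, 326 cell barcodes were shared, at most 2.50% of the smaller library, and no cell profile was identical.

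Cells were placed in 11 classes by the markers they expressed, and no member was among these markers. A cell entered the class with the highest share of its markers detected, from at least 3 markers. Glutamatergic neurons made up 50.1 to 67.7% of the kept cells in the 5 libraries. They were divided further into upper layer, deep layer and newborn neurons. With these subclasses in place of glutamatergic neurons, 9 classes had at least 10 cells in each WT library compared.

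*Reln* (ENSMUSG00000042453, GRCm38 chromosome 5, 21884454 to 22344702, minus strand) encodes the ligand. Across the kept cells it stood at 0.926, 0.333 and 0.375 UMIs per 10000 in WT2 to WT4 and at 0.433 and 0.498 in KO4 and KO5. WT2 was above and the other WT libraries below both KO libraries, and the difference did not pass the test (log2 fold change -0.06, SE 0.15, adjusted p = 0.816, limma). Fold changes here and below are KO minus WT of log2(UMIs per 10000 + 1), which understates the change of low genes, and p-values are adjusted over all genes tested. None of the 7 genes passed an adjusted p of 0.05 over all kept cells, where 1.15% of 8554 genes did. At an unadjusted p under 0.05, 2 of the 7 and 2202 of all genes were counted. DESeq2 called 1 of the 7 beside 312 of 11286 genes tested, and edgeR 0 beside 134 of 12423.

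**Figure D1:**
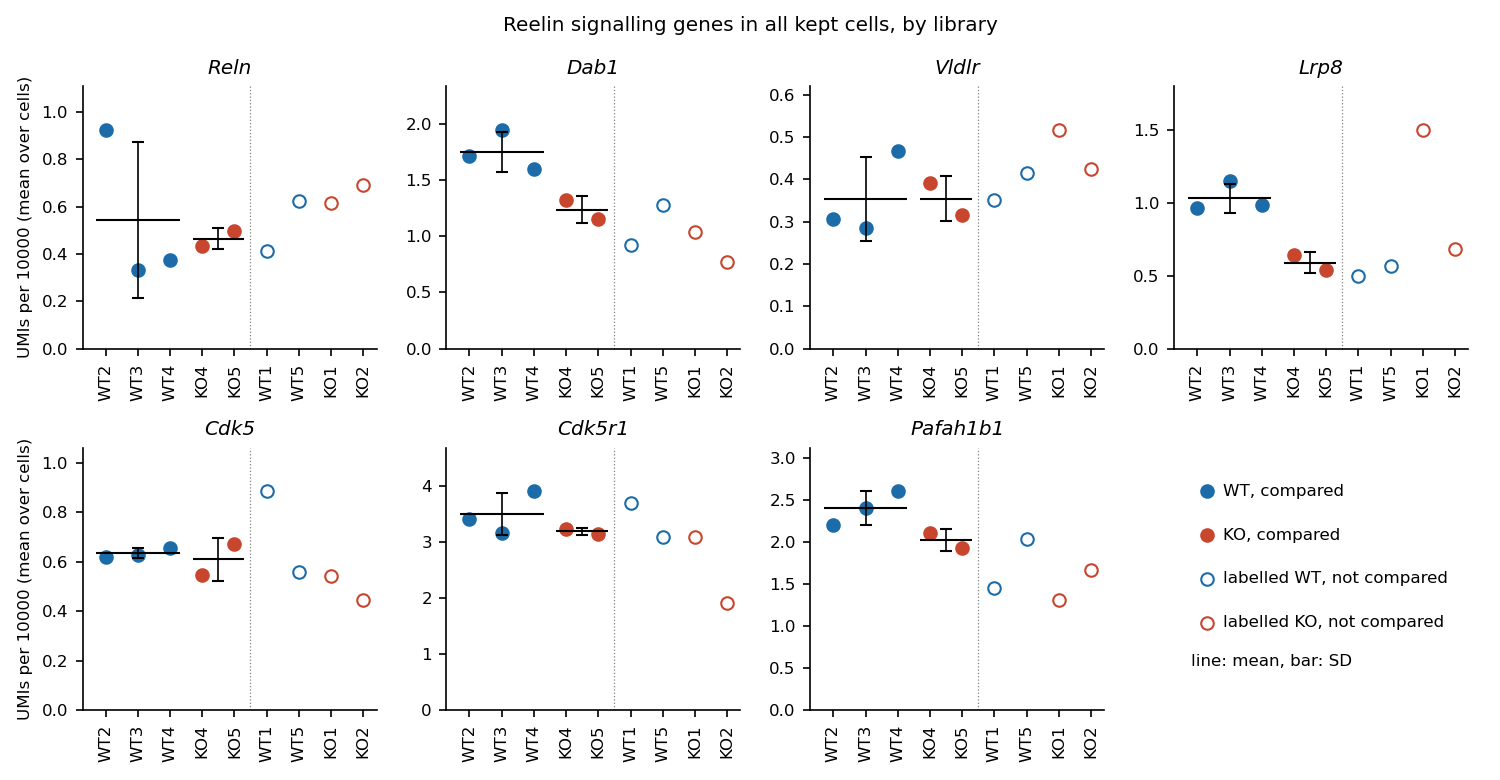
Level of each reelin signalling gene over all kept cells (vertical axis, mean UMIs per 10000) in the 9 libraries (horizontal axis). Filled points are the libraries compared, open points the others as labelled, with the mean (line) and SD (bar) of WT2, WT3, WT4 and of KO4, KO5. *Dab1*, *Lrp8* and *Pafah1b1* were lower in both KO libraries than in the 3 WT libraries, and *Lrp8* was highest in the library labelled KO replicate 1, at 1.50.

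*Tcf4* encodes an E-protein, and E-proteins bind the E-box CANNTG. The promoter window of *Reln* is shown since it encodes the ligand, whose source cells are followed below. RefSeq windows on GRCm38.p6 were found for 5 of the 7 members (9 windows, none for *Cdk5* and *Cdk5r1*). The 250 bases before the *Reln* start (chr5:22344706-22344955, minus strand, no exon of the gene), read 5′ to 3′ with the E-box in capitals, are:
Reln: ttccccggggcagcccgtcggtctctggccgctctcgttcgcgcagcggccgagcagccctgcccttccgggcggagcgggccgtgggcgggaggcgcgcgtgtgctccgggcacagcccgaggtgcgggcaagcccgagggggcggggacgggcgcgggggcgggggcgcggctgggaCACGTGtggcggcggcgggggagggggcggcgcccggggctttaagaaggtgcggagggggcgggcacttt
It is 80.0% G and C and holds 1 E-box, CACGTG, whose first base lies 71 bases before the start. Of 32851 mouse windows of this length, 66.2% held any CANNTG, which reads as CANNTG on both strands, and 6.02% held CACGTG. A match is a description of the letters and not a binding site.

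Most *Reln* UMIs of the WT libraries lay in Cajal-Retzius cells, the defining source of the ligand at this age. Their level of *Reln* was 28.5, 33.3 and 29.9 UMIs per 10000 in 32, 13 and 46 cells of WT2 to WT4. Interneurons came next, at 0.336, 0.466 and 0.388, and the 2 ranges were far apart. The next classes, from deep layer neurons (0.223 ± 0.172, SD, n = 3) through endothelial cells, intermediate progenitors, radial glia or astrocytes, newborn neurons and cycling progenitors to upper layer neurons (0.066 ± 0.050), each overlapped with their neighbour in this order. After thinning, 100%, 100% and 93.5% of the Cajal-Retzius cells of WT2 to WT4 had a *Reln* UMI.

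In the KO libraries, the gate found 12 such cells in KO4 and 1 in KO5, with *Reln* at 6.49 and 5.25 UMIs per 10000. The library labelled WT replicate 5 had 5 cells at 24.5, and the library labelled KO replicate 1 had 5 at 26.6. With 1 cell in KO5 the level was not tested. Of these cells, 10 of 12 in KO4 and the 1 in KO5 had only the minimum of 3 markers, against 1 of 32, 1 of 13 and 6 of 46 in WT2 to WT4. With 1 more marker required, KO4 was the only KO library left, with 2 cells at 12.2, and the WT mean was 31.6 ± 2.77 (SD, n = 3). The gate held 2.70, 0.804 and 0.745% of kept cells in WT2 to WT4 against 0.286 and 0.0434% in KO4 and KO5. The 8 Cajal-Retzius markers summed to 36.7 to 46.2 UMIs per 10000 in the gated WT cells and to 15.7 to 17.2 in the KO cells, while the 14 markers of radial glia or astrocytes summed to 4.04 to 8.73 and 10.5 to 16.7 in the same cells. Median depth of these cells was 4059.5, 5519 and 6504 UMIs in WT and 2286 and 1906 in KO. Over all kept cells the median depth was 2478.5 UMIs in WT2, 2290 in KO4 and 2217 in KO5. The part of depth and of the dissection in this difference was not tested.

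The *Reln* UMIs of a library could be divided among the classes. Cajal-Retzius cells held 86.6% of 463 *Reln* UMIs in WT2, 87.9% of 331 in WT3 and 68.1% of 1343 in WT4, but 5.32% of 451 in KO4 and 0.368% of 272 in KO5. The groups did not overlap (80.9 ± 11.1%, SD, n = 3, against 2.85 ± 3.50%, n = 2), and a 2-sided exact permutation test gave p = 0.1, the smallest p that 3 against 2 libraries allow. The share was 5.84% of 548 UMIs in the library labelled WT replicate 5 and 66.2% of 65 in that labelled KO replicate 1, so that both stood with the other genotype, as they did by *Tcf4*. With the former added to WT, the KO minus WT difference went from -78.0 to -59.3 percentage points (exact permutation p = 0.133).

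**Figure D2:**
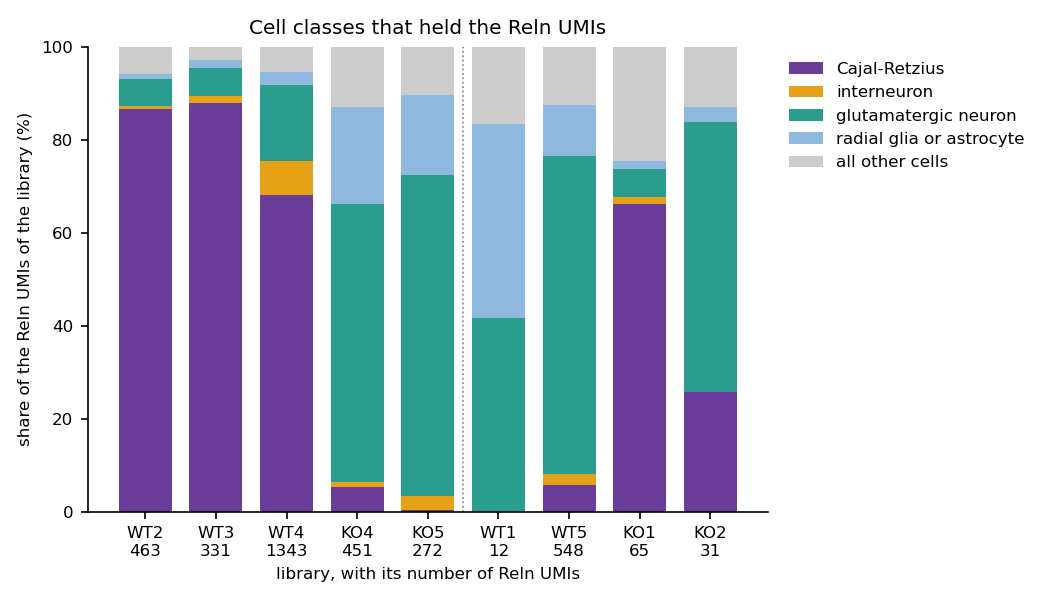
Share of the *Reln* UMIs of each library (vertical axis, percent) held by Cajal-Retzius cells, interneurons, glutamatergic neurons, radial glia or astrocytes and all other cells (colours), with the number of *Reln* UMIs under each library. Libraries right of the dotted line were not compared. Cajal-Retzius cells held 68.1 to 87.9% in WT2 to WT4 and 0.368 to 5.32% in KO4 and KO5.

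Interneurons were the second candidate source. They held 0.648, 1.51 and 7.30% of the *Reln* UMIs in WT2 to WT4 and 1.11 and 2.94% in KO4 and KO5, groups that overlap (exact permutation p = 0.9). WT4 decided the direction: the KO minus WT difference was 0.946 percentage points without it and -1.13 with it. WT4 also held 613 interneurons, 9.93% of its cells, against 3.46% in WT2 and 2.1% in WT3. Within the 241 interneurons of WT4 with markers of the medial ganglionic eminence, *Reln* stood at 0.701 UMIs per 10000, and within its 115 with markers of the caudal ganglionic eminence at 0.223. The *Reln* level of all interneurons, 0.284 and 0.702 in KO4 and KO5, spanned the WT values and did not pass the test (log2 fold change 0.08, SE 0.17, adjusted p = 0.907, limma).

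Few cells carried many *Reln* UMIs. Cells with at least 5 numbered 31, 13 and 43 in WT2 to WT4, and 27, 13 and 38 of them lay in the Cajal-Retzius gate. All 31 and 13 of the first libraries and 40 of the 43 in WT4 had at least 1 Cajal-Retzius marker. The highest count in a cell was 42, 47 and 57. In KO4 there were 11 such cells, of which 2 lay in the gate and 9 had at least 1 Cajal-Retzius marker. In KO5 there was 1, outside the gate and with such a marker, and the highest counts were 9 and 6. The gate thus took in a smaller part of the cells rich in *Reln* in the KO libraries than in the WT libraries, which bears on its share of the *Reln* UMIs there. These cells held 89.6, 87.9 and 69.3% of the *Reln* UMIs in WT and 15.5 and 2.21% in KO4 and KO5, where 85.0 and 90.4% of *Reln*-positive cells had a single UMI.

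In glutamatergic neurons, which receive the signal, *Reln* was 0.108, 0.0477 and 0.132 UMIs per 10000 in WT2 to WT4 and 0.396 and 0.497 in KO4 and KO5. Both KO values lay above all WT values, and *Reln* rose (log2 fold change 0.40, SE 0.05, adjusted p = 0.00493, limma). Without WT2 the adjusted p was 0.0582, and with the library labelled WT replicate 5, itself at 0.603, added to WT it was 0.673 (log2 fold change 0.26). In radial glia or astrocytes *Reln* was 0.107, 0.119 and 0.111 in WT and 0.557 and 0.480 in KO. It rose there as well (log2 fold change 0.45, SE 0.06, adjusted p = 0.00348, limma), though with the library labelled WT replicate 5 (0.499) added the adjusted p was 0.724. A higher KO level was not particular to these classes. Mean *Reln* was 0.183 in WT and 0.503 in KO in intermediate progenitors, and 0.0832 and 0.302 in cycling progenitors. The groups did not overlap in either, which was not tested. Interneurons, whose groups overlapped, had 0.397 and 0.493, and all kept cells of KO had 0.465.

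The share of glutamatergic neurons with a *Reln* UMI, 0.843, 0.777 and 1.98% in WT2 to WT4, was 6.18 and 8.15% in KO4 and KO5. Free RNA in droplets gives such UMIs to cells that do not make a transcript, so cells of the vessel wall serve as a reference. Of the endothelial cells of KO4, 13.6% of 66 had a *Reln* UMI at a median depth of 2315.5 UMIs, against 2325.5 in the neurons. The share in KO4 neurons did not lie above this. Other classes of KO4 held 0 *Reln* UMIs: 35 microglia, which allow a share of up to 8.57%, and 9 mural cells or fibroblasts, up to 33.3% (counting error only). In WT2 to WT4 the endothelial share, with a mean of 5.06% (SD 2.98, n = 3), also lay above each share of the neurons. It rested on 2, 1 and 1 *Reln* UMIs before thinning, in 23, 12 and 40 cells. By level, endothelial cells lay above the neurons in WT2 and WT3 (0.195 and 0.327 UMIs per 10000) and below them in WT4 (0.0339). The reference classes thus differed, and the share in KO4 neurons is read neither as expression nor as free RNA. In KO5, 0 of 13 endothelial cells allow a share of up to 23.1% (counting error only), too few cells for a comparison. Whether free RNA accounts for the KO shares was not tested. Markers of some other classes were also higher in the glutamatergic gate of KO. Of the 14 markers of radial glia or astrocytes, 13 to 14 were detected. They summed to 8.71 to 10.9 UMIs per 10000 in WT and 20.9 to 23.8 in KO, and the 10 microglial markers to 0.0642 to 0.162 and 0.603 to 0.824. The 8 Cajal-Retzius markers did not rise there, at 0.412 to 0.920 in WT and 0.415 to 0.536 in KO. The part of these lists in the *Reln* difference was not tested.

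**Figure D3:**
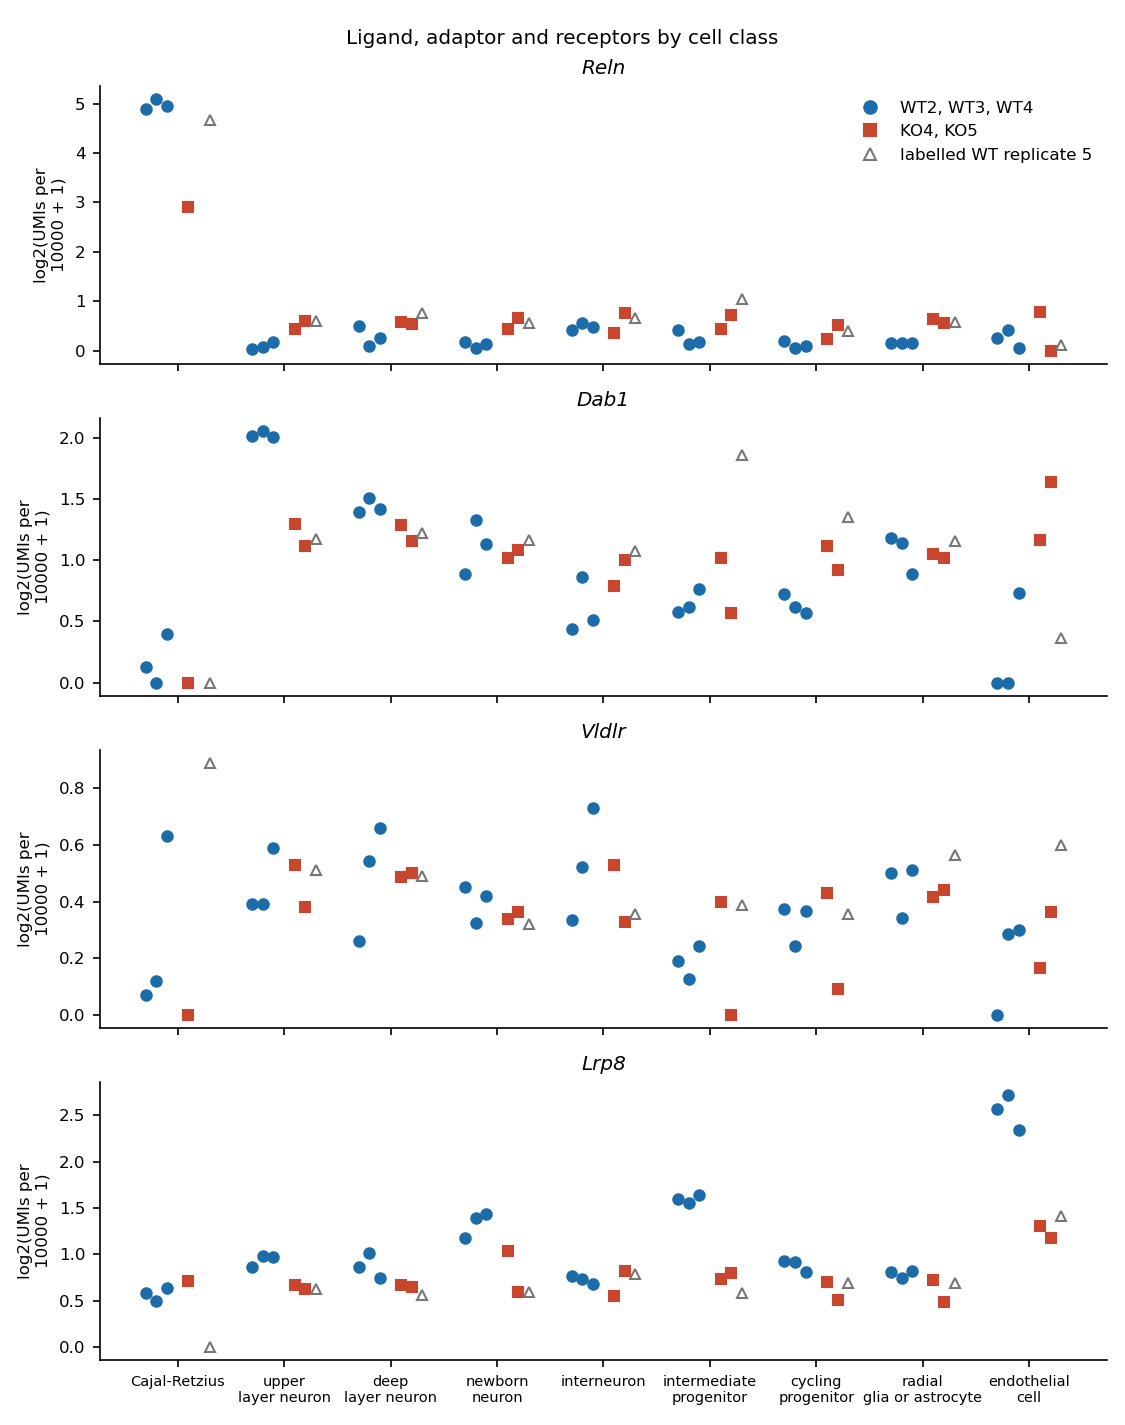
Levels of *Reln*, *Dab1*, *Vldlr* and *Lrp8* (vertical axes, log2 of UMIs per 10000 plus 1) in 9 cell classes (horizontal axis). Each point is 1 library with at least 5 cells of the class, WT2, WT3, WT4 as circles, KO4, KO5 as squares and the library labelled WT replicate 5 as open triangles. *Reln* stood out in Cajal-Retzius cells, *Dab1* in upper layer neurons and *Lrp8* in endothelial cells of the WT libraries, and the KO points of *Dab1* and *Lrp8* varied less between classes than the WT points.

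*Dab1* (ENSMUSG00000028519, chromosome 4, 103619359 to 104744844, plus strand) encodes the adaptor that both receptors recruit. In WT it was highest in upper layer neurons, at 3.03, 3.16 and 3.02 UMIs per 10000 in WT2 to WT4. Deep layer neurons followed at 1.63, 1.84 and 1.67, and neither range overlapped with that of the next class. Newborn neurons (1.18 ± 0.335, SD, n = 3) and radial glia or astrocytes (1.11 ± 0.229) overlapped with each other, and the latter lay above intermediate progenitors (0.576 ± 0.111). From there, cycling progenitors, interneurons, endothelial cells and Cajal-Retzius cells each overlapped with their neighbour, down to 0.137 ± 0.164. The ligand's source and the cells richest in its adaptor were thus at opposite ends of the *Dab1* order.

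Over all kept cells *Dab1* was 1.71, 1.95 and 1.60 in WT and 1.32 and 1.15 in KO. The groups did not overlap, but the difference did not pass the test (log2 fold change -0.30, SE 0.09, adjusted p = 0.152, limma). Without WT4 it did (adjusted p = 0.0389, limma), in a fit that called 1394 of 8380 genes, against 98 of 8554 with WT4. In glutamatergic neurons the WT values were 2.25, 2.60 and 2.3 and the KO values 1.41 and 1.18. *Dab1* fell there (log2 fold change -0.56, SE 0.09, adjusted p = 0.0197, limma), a mean of 2.39 ± 0.190 (SD, n = 3) against 1.29 ± 0.162 (n = 2). With *Reln* it made 2 of 7 members called in glutamatergic neurons, where 2.68% of 8313 genes were called. Adjusted p-values were 0.0863 without WT2, 0.116 without KO4 and 0.453 without KO5. The library labelled WT replicate 5 stood at 1.30, among the KO values, and with it in WT the adjusted p was 0.673 (log2 fold change -0.42).

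Between layers, the KO libraries lacked the step that the WT libraries showed. Upper layer neurons had *Dab1* at 1.46 and 1.17 in KO4 and KO5, below all WT values, and deep layer neurons had 1.44 and 1.23, also below the WT values but by less. These subclasses were not tested. Over the 8 classes with at least 10 cells in all 5 libraries, *Dab1* ran from 0 to 3.03 in WT2, 0 to 3.16 in WT3 and 0.425 to 3.02 in WT4, but from 0.732 to 1.46 in KO4 and 0.482 to 2.11 in KO5. The SD over these classes was 0.867 to 0.988 in WT, 0.238 and 0.460 in KO, and 0.645 in the library labelled WT replicate 5. A smaller spread was not particular to *Dab1*. The SD of *Neurod6* was 3.615 to 6.33 in WT, 1.66 and 1.40 in KO, and 1.43 in that library. For *Actb* it was larger in KO, at 16.6 and 12.2 against 9.05 to 9.74 in WT. The part of such library-wide differences in that of *Dab1* was not tested.

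Shares of cells with a *Dab1* UMI were read in 2 of these classes. A *Dab1* UMI was found in 30.7, 35.0 and 32.0% of glutamatergic neurons of WT2 to WT4 and in 0, 0 and 10.0% of their endothelial cells. In KO4 and KO5 it was found in 22.7 and 19.6% of glutamatergic neurons and in 21.2 and 38.5% of 66 and 13 endothelial cells. Median depths in the 2 classes of WT were 2520 to 4700 and 3695.5 to 5724.5 UMIs before thinning. The gap between the 2 classes was thus wide in the WT libraries and not seen in the KO libraries, where 13 to 66 endothelial cells stand behind it. Endothelial cells are not a class free of *Dab1*, since those of WT4 had 0.658 UMIs per 10000.

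In interneurons, *Dab1* was 0.353, 0.821 and 0.425 in WT and 0.732 and 0.998 in KO, values that overlap (log2 fold change 0.29, SE 0.19, adjusted p = 0.588, limma). None of the 7 members was called there, where 1.59% of 8953 genes were, and none was under an unadjusted p of 0.05. DESeq2 also called 0 of 7 and edgeR 0 of the 2 that passed its filter, beside 55 of 2921 and 90 of 2086 genes tested. The gap between glutamatergic neurons and interneurons was tested within each library. It was 1.27, 0.98 and 1.21 on the log2 scale in WT2 to WT4 and 0.48 and 0.13 in KO4 and KO5. *Dab1* differed in this gap (KO minus WT -0.85, SE 0.18, adjusted p = 0.000578, limma) and was the only member of 7 to do so, where 1.53% of 8018 genes did. Without KO5 the adjusted p was 0.436, and with the library labelled WT replicate 5, whose gap was 0.12, it was 0.769. Of the interneurons, 44 of 73 in KO4 and 33 of 52 in KO5 had only the minimum of 3 markers. In WT2 to WT4 these were 19 of 41, 7 of 34 and 58 of 613. The 19 interneuron markers summed to 27.9 to 38.3 UMIs per 10000 in the interneurons of WT and to 18.3 to 21.8 in those of KO. The 10 glutamatergic markers summed to 7.85 to 10.5 in WT and to 12.5 to 12.6 in KO. The part of these marker differences in the smaller gap was not tested.

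*Dab1* has 2 RefSeq starts with a window, and both windows hold CAGGTG. This form of the E-box, with its complement CACCTG, is present in 17.2% of all windows and in 4 of the 9 windows of members. The other member windows with it are of *Lrp8*. The upstream window of *Dab1* also holds CAATTG. Both *Dab1* windows overlap exons of other transcripts of the gene. The first base of CAGGTG lies 71 bases before the downstream start and 133 before the upstream start. Only the 26 bases around each CAGGTG are shown, with the E-box in capitals (chr4:104367457-104367482 and chr4:103619357-103619382, plus strand):
Dab1, downstream start: cgctcagtggCAGGTGagcggcgggg
Dab1, upstream start: acactgtggcCAGGTGcagccaagcc

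*Vldlr* (ENSMUSG00000024924, chromosome 19, 27216484 to 27254231, plus strand) encodes the receptor named for very low density lipoprotein. In all kept cells it was 0.306, 0.286 and 0.468 UMIs per 10000 in WT2 to WT4 and 0.393 and 0.317 in KO4 and KO5. Both KO values lay within the WT range (log2 fold change 0.00, SE 0.06, adjusted p = 0.974, limma). In glutamatergic neurons it was 0.323, 0.306 and 0.482 in WT and 0.420 and 0.342 in KO, again within the WT range (log2 fold change 0.01, SE 0.06, adjusted p = 0.909, limma). The order of its levels over the 9 WT classes, from interneurons (0.452 ± 0.199, SD, n = 3) to intermediate progenitors (0.139 ± 0.0471), had an overlap between each class and the next, so that no class stood out. A *Vldlr* UMI was found in 5.57, 4.18 and 8.17% of WT and 6.66 and 6.10% of KO glutamatergic neurons, and in 0, 0 and 2.50% of the endothelial cells of WT2 to WT4.

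*Lrp8* (ENSMUSG00000028613, chromosome 4, 107802261 to 107876840, plus strand) encodes APOER2, which besides reelin takes up selenoprotein P. Its pattern differed from that of *Vldlr*. Endothelial cells had 4.95, 5.60 and 4.07 UMIs per 10000 in WT2 to WT4, in 23, 12 and 40 cells. Intermediate progenitors had 2.02, 1.94 and 2.11 and newborn neurons 1.26, 1.62 and 1.70. These 3 classes did not overlap with each other or with the next. Upper layer neurons (0.917 ± 0.0827, SD, n = 3), cycling progenitors, deep layer neurons, radial glia or astrocytes and interneurons (0.655 ± 0.0476) overlapped with their neighbours, and Cajal-Retzius cells were lowest at 0.486 ± 0.0745.

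In KO4 and KO5 the endothelial level was 1.46 and 1.26 in 66 and 13 cells, and 1.67 in the library labelled WT replicate 5. Intermediate progenitors had 0.666 and 0.735 and newborn neurons 1.06 and 0.503. In these 3 classes both KO values lay below all WT values, which was not tested. The 9 endothelial markers summed to 94.5 to 154 UMIs per 10000 in the gated endothelial cells of WT and to 36.5 to 45.7 in those of KO, and all 9 were detected in every library. The part of this difference in that of *Lrp8* was not tested. An *Lrp8* UMI was found in 56.5, 58.3 and 45.0% of WT endothelial cells and in 15.2 and 23.1% of KO endothelial cells.

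In all kept cells *Lrp8* was 0.962, 1.15 and 0.982 in WT and 0.640 and 0.539 in KO. The groups did not overlap, and the difference did not pass the test (log2 fold change -0.35, SE 0.07, adjusted p = 0.0838, limma). DESeq2 gave an adjusted p of 0.0259 and edgeR 0.137. Limma without WT4 gave 0.0268, in the fit that called 1394 of 8380 genes. Of the other libraries, that labelled KO replicate 1 had 1.50, above all others, and those labelled WT replicates 1 and 5 had 0.496 and 0.570, against their labels. That labelled KO replicate 2 had 0.682, below the 3 WT libraries compared. In glutamatergic neurons the values were 0.874, 1.15 and 1.07 in WT and 0.639 and 0.568 in KO, without overlap (log2 fold change -0.34, SE 0.08, adjusted p = 0.0713, limma). There the adjusted p (limma) was 0.0497 without WT4 and 0.0438 with a gate of 1 more marker. These fits called 977 of 8157 and 241 of 8344 genes, against 223 of 8313 in the main fit.

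Receptor and adaptor can be read in the same cells. After thinning, 19.9, 20.8 and 23.3% of glutamatergic neurons of WT2 to WT4 had a UMI of either receptor, against 17.0 and 15% in KO4 and KO5. Both receptors were found together in 0.675, 0.971 and 1.59% and in 0.640 and 0.770%. *Dab1* with a receptor was found in 5.40, 6.80 and 7.25% of WT cells, where the product of the separate shares is 6.11, 7.26 and 7.44%. In KO4 and KO5 it was 4.14 and 3.27%, with products of 3.86 and 2.94%. The cells of WT thus held the pair slightly less often and the cells of KO slightly more often than the products, differences that were not tested.

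*Cdk5* (ENSMUSG00000028969, chromosome 5, 24418241 to 24423530, minus strand) encodes a neuronal kinase. Among all kept cells it was 0.619, 0.626 and 0.657 in WT2 to WT4 and 0.548 and 0.671 in KO4 and KO5, so that the KO values lay on both sides of the WT values (log2 fold change -0.02, SE 0.06, adjusted p = 0.806, limma). In glutamatergic neurons it was 0.674, 0.688 and 0.690 in WT and 0.554 and 0.672 in KO (log2 fold change -0.06, SE 0.06, adjusted p = 0.528, limma). Across the WT classes it ran from 0.815 ± 0.146 (SD, n = 3) in Cajal-Retzius cells to 0.196 ± 0.181 in endothelial cells, with overlap between neighbours except that intermediate progenitors (0.613 ± 0.0555) lay above cycling progenitors (0.518 ± 0.0381).

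*Cdk5r1* (ENSMUSG00000048895, chromosome 11, 80477023 to 80481184, plus strand) encodes p35, an activator of the kinase. It was 3.41, 3.16 and 3.90 in all kept cells of WT2 to WT4 and 3.23 and 3.14 in those of KO4 and KO5, which overlap (log2 fold change -0.10, SE 0.10, adjusted p = 0.524, limma). In glutamatergic neurons both KO values, 3.38 and 3.25, lay below the WT values of 4.17, 3.82 and 4.31 (log2 fold change -0.24, SE 0.10, adjusted p = 0.183, limma), and the difference did not pass the test. In WT the glutamatergic subclasses had 3.61 ± 0.517 (newborn) to 4.29 ± 0.195 (upper layer, SD, n = 3), Cajal-Retzius cells 2.96 ± 0.596 and endothelial cells 0.752 ± 0.247. Endothelial cells of KO4 and KO5 had 1.98 and 3.12, and the span over 8 classes was 0.554 to 4.46 in WT2, 0.673 to 4.08 in WT3 and 1.03 to 4.60 in WT4 against 1.98 to 3.54 in KO4 and 1.46 to 3.63 in KO5.

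*Pafah1b1* (ENSMUSG00000020745, chromosome 11, 74673949 to 74724670, minus strand) encodes LIS1, whose loss on 1 allele causes lissencephaly in humans. All kept cells had 2.20, 2.41 and 2.61 in WT2 to WT4 and 2.12 and 1.93 in the KO libraries. The KO values lay below the WT values (log2 fold change -0.17, SE 0.09, adjusted p = 0.244, limma), without passing the test. In glutamatergic neurons WT had 2.09, 2.47 and 2.75 and KO had 2.16 and 1.93, which overlap (log2 fold change -0.17, SE 0.11, adjusted p = 0.328, limma). It varied little between classes: from interneurons (2.64 ± 0.252, SD, n = 3) to endothelial cells (2.11 ± 0.184) every WT class overlapped with its neighbour, and Cajal-Retzius cells stood above them at 3.53, 3.14 and 4.17.

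**Figure D4:**
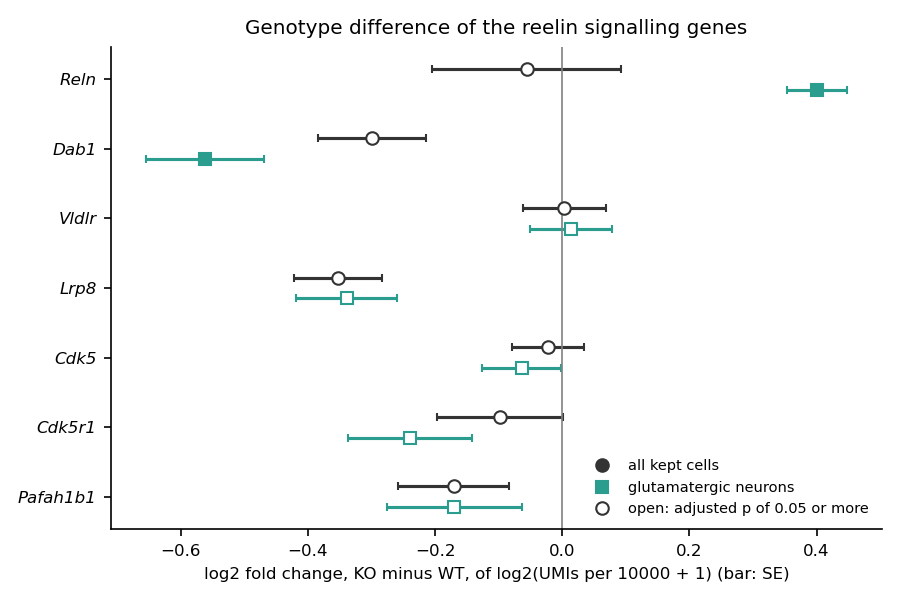
Genotype difference of the 7 genes (horizontal axis, log2 fold change of KO minus WT on the scale of log2 UMIs per 10000 plus 1, with SE) over all kept cells (circles) and in glutamatergic neurons (squares). Filled symbols passed an adjusted p of 0.05. *Reln* and *Dab1* in glutamatergic neurons passed, in opposite directions, and *Vldlr* lay at 0.

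By direction, 6 of the 7 members had a lower mean in KO over all kept cells, with a median log2 fold change of -0.10 beside -0.05 over all 8554 genes tested, of which 72.3% were lower. In radial glia or astrocytes *Reln* was the only member of 7 called, where 4.02% of 8982 genes were. *Cdk5r1* had 2.14, 1.50 and 2.85 there in WT2 to WT4 and 3.02 and 3.03 in KO4 and KO5, and *Lrp8* had 0.751, 0.674 and 0.767 and then 0.645 and 0.398. *Pafah1b1* had 2.199, 2.393 and 2.345 in WT2 to WT4 and 1.91 to 2.03 in KO. None of these passed the test, although their groups did not overlap. At an unadjusted p under 0.05 (limma), 2 of the 7 members and 22.6% of all genes were counted there.

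A list of 43 other genes of the pathway was read in the same fits: proteases and partners of the ligand, receptor chaperones, kinases of DAB1 and its adaptors, the lipid kinase branch, the turnover of DAB1, partners of LIS1 and CDK5, and outputs on the cytoskeleton. Over all kept cells 36 were tested and 0 were called in either direction, while 10 had an unadjusted p under 0.05, which is 27.8% of the list against 25.7% of all genes. Of 34 tested in glutamatergic neurons and 35 in interneurons 0 were called, with 9 and 5 under an unadjusted p of 0.05. These are 26.5 and 14.3% of the list against 24.8 and 11.6% of all genes, so that the list did not stand out. The medians of -0.05 and -0.06 lay close to the -0.04 and -0.03 of all genes. In radial glia or astrocytes 1 of 35 was called, no more than the 4.02% of all genes. This was *Plat*, the tissue plasminogen activator, a protease reported to cleave reelin, at 0.356, 0.385 and 0.345 UMIs per 10000 in WT and 0.0840 and 0.0556 in KO (log2 fold change -0.35, SE 0.06, adjusted p = 0.0111, limma). The 14 markers of this class summed to 131 to 233 UMIs per 10000 in its WT cells and to 46.0 to 54.7 in its KO cells. The part of this difference in that of *Plat* was not tested.

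The 4 list genes with the lowest p in glutamatergic neurons did not pass the adjustment (limma). *Lrpap1*, the chaperone RAP that keeps ligands off lipoprotein receptors while they fold, had 0.895, 1.40 and 0.857 in WT and 0.473 and 0.621 in KO (log2 fold change -0.40, SE 0.12, adjusted p = 0.116). *Nck2*, an SH2 and SH3 adaptor that binds phosphorylated DAB1, had a log2 fold change of 0.11 (SE 0.03, adjusted p = 0.121). *Cdk5rap2*, a centrosomal protein that binds p35, had -0.09 (SE 0.03, adjusted p = 0.161), and *Mesdc2*, a chaperone of the same receptor family, had -0.12 (SE 0.05, adjusted p = 0.169). The groups did not overlap for any of these 4 genes, which adds no support, since they were picked by p in this same fit. There, 24.8% of all genes had an unadjusted p under 0.05.

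The genes most like the ligand, adaptor and receptors were sought by Pearson's r of log2(UMIs per 10000 + 1) over 12 classes, each the mean of WT2 to WT4, among 6425 genes that are neither members nor markers. The classes of a library share its depth, so that r is a description. For *Reln* they were *Ramp3*, a partner of calcitonin family receptors (r = 0.999), *Nppc*, the precursor of C-type natriuretic peptide (0.998), and *Gm27199* (0.998), all highest in Cajal-Retzius cells, where *Gm27199* had 2.59 UMIs per 10000 and at most 0.0414 elsewhere. For *Dab1* they were *Fam49a* (0.941), *Fam19a2* (0.877) and *Tenm2* (0.876), the last a teneurin adhesion protein, with *Fam49a* at 2.68 in upper layer neurons. For *Vldlr* they were *Srebf2*, a regulator of sterol synthesis (0.919), *Dnm1l*, a mitochondrial fission protein (0.915), and *Gng2*, a G protein subunit (0.913), highest in striatal neurons or interneurons. For *Lrp8* they were *Pcdh18* (0.948), *Ccnjl* (0.938) and *St8sia4*, a polysialyltransferase (0.935), all highest in endothelial cells.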

How the data were processed

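Single-cell RNA-Seq (Chromium 3′ v2) had been performed on 1 neocortex per library. The authors aligned reads to mm10 with Cell Ranger (2.1.0 per the labels) and deposited filtered cells by genes, per the files' values either as UMI counts or as the natural log of UMIs per 10000 plus 1 (Seurat). Where values were natural logs, the deposited counts were recovered as whole UMIs in 100% of values (tolerance 1e-06). Cells were kept with 1000 to 5000 genes, 1800 to 10000 UMIs, under 6% mitochondrial and at most 1% haemoglobin UMIs. No doublet caller was run, and the sources used here state no doublet removal. Doublets that remain can add markers and co-detected genes of another class. Classes were set by marker detection (at least 3 markers, no tie, subclasses at least 2).

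Mean UMIs per 10000 were compared as log2(value + 1) with limma-trend 3.58.1 (robust) in R 4.3.3, for genes at 0.1 or more in at least 2 libraries and classes with at least 20 cells per library, with Benjamini-Hochberg adjustment and a threshold of 0.05. Alternatives were edgeR 4.0.16, DESeq2 1.42.0 (on summed UMIs), a pseudocount of 0.1, no filter, thinning, other libraries and gates. Exact permutation tests were 2-sided (SciPy 1.17.1). Scripts were tested on simulated data. Each library was 1 animal, so p-values measure the spread between animals. Members, lists and rules were chosen with earlier results of these data known. Named genes were the members, list genes called or, failing that, the 4 lowest p, and the 3 genes most like *Reln*, *Dab1*, *Vldlr* and *Lrp8*. Positions are from GENCODE on GRCm38 and promoter windows from RefSeq.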

Additional observations from a re-analysis of the deposited data

Results flagged for a closer look

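Over all kept cells, the library labelled KO replicate 1 lay far above the other 3 KO libraries in *Lrp8*, at 1.50 UMIs per 10000. The library labelled KO replicate 2, with 118 cells, lay far below the other 3 in *Cdk5r1*, at 1.91. These were 2 of 49 groups tested with Dixon's criterion, which flags about 1 in 20 groups by chance. The genotype difference of *Dab1* differed between glutamatergic neurons and interneurons by -0.85 on the log2 scale (limma, adjusted p = 0.000578). The gap between the classes was smaller in 2 of 2 KO libraries than in 3 of 3 WT libraries. In KO4 and KO5, 44 of 73 and 33 of 52 interneurons had only the minimum of 3 markers.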

How the results depend on the processing

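Of 279 alternative values for single members, 230 kept their direction and side of the threshold, 22 were no longer called, 5 became called and 22 turned direction. Members called were 0 over all kept cells (1 by DESeq2, 0 to 2 with a library left out), 2 in glutamatergic neurons (0 to 3 with a library left out), 0 in interneurons, 1 in radial glia or astrocytes (2 where the leading class had to be 0.1 ahead, chosen after seeing the data) and 1 in the difference between classes (0 to 1 with a library left out). With no filter on low values, or with the library labelled WT replicate 5 added, 0 were called in any of these. With all libraries as labelled 0 were called over all kept cells and in the 3 classes. Among all genes, 98 calls over all kept cells became 36 without the filter, 312 by DESeq2 and 0 to 1394 with a library left out. The 223 in glutamatergic neurons became 42, 462 and 21 to 977, and 378 by edgeR. The 142 in interneurons became 0, 55 and 36 to 151, 90 by edgeR and 87 with a pseudocount of 0.1. The 361 in radial glia became 32 without the filter, 188 after thinning, 682 with the lead of 0.1 and 40 to 758 with a library left out. The 123 in the difference became 68 with that pseudocount, 0 without the filter and 21 to 156. With the library labelled WT replicate 5 added, these counts were 0. With all libraries as labelled, they were 0 in the 4 fits other than the difference, for which this was not run. For interneurons that fit equals the one before, since the other libraries had under 20 cells. The cause was not tested.

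Over all kept cells 3 of 4 same-numbered pairs deviated together (r = 0.30, 0.30 and 0.57) and that of number 1 did not (-0.05), so that the numbers were not taken as pairs, and not every library correlated best with its own number. With the replicate block, 0 genes were called over all kept cells, in glutamatergic neurons and in radial glia, and 14 in interneurons; the same libraries without the block, an alternative chosen after seeing the data, gave 0 in all. *Lrp8* turned to 0.0545 over all kept cells and 0.0560 in glutamatergic neurons both with the block and without it.

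Over all kept cells *Cdk5* turned to 0.139 by edgeR and 0.135 by DESeq2 and ranged from -0.0780 to 0.0325 with a library left out, *Cdk5r1* turned to 0.0796 and 0.0777 by these tools, *Reln* ranged from -0.152 to 0.114 (without WT2) and was 0.0345 with all libraries, and *Vldlr* ranged from -0.0369 to 0.0635 and was -0.0132 with the library labelled WT replicate 5. In glutamatergic neurons *Vldlr* ranged from -0.0277 to 0.0709 and was -0.000607 with 1 more marker. In interneurons *Reln* became -0.0544 after thinning, ranged from -0.120 (without KO5) to 0.286 and was -0.0211 with haemoglobin-rich cells. The interneuron share of *Reln* UMIs ranged from -2.38 to 0.946 percentage points with a library left out, the Cajal-Retzius share from -84.4 to -74.5, and the Cajal-Retzius level, -24.7 UMIs per 10000, from -25.7 to -23.3, or -19.4 with 1 more marker. Depth limits *Vldlr* and *Reln* outside Cajal-Retzius cells, where most positive cells had a single UMI.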
